A study of Xenopus tropicalis with 9 samples.

Results

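The messages of the cytosolic ribosomal proteins were followed through 9 RNA-seq libraries of oocytes and embryos of the frog Xenopus tropicalis. The genes were chosen by symbol alone: rpl or rps followed by a number, with an optional a, l or x, plus the stalk genes rplp0, rplp1 and rplp2 and the small subunit gene rpsa, and without the rps6k kinases. The rule took 77 of the 15288 genes of the table, 73 by the pattern and 4 by their full names. They comprised 47 genes of the large ribosomal subunit and 30 of the small subunit. Of the 77 symbols, 76 are also symbols of the RefSeq gene table, the exception being rps20. The RefSeq symbols rpl7l1 and rps27l also meet the pattern but are not among the 15288 genes.

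The polyA libraries covered the oocyte (stage VI oocytes freed from ovarian follicles with collagenase) and whole embryos of 5 Nieuwkoop-Faber stages: the early blastula at stage 6, the late blastula at stage 9, the gastrula at stage 12, the neurula at stage 16 and the early larva at stage 30. The RZ libraries, for which ribosomal RNA was removed from total RNA in place of a polyA selection, existed for the oocyte, the early blastula and the late blastula. Embryos came from in vitro fertilization of outbred animals primed with chorionic gonadotropin and were dejellied in cysteine. The oocyte groups thus differ from the embryo groups in source and handling as well as in stage, and these cannot be told apart. No genotype sets the groups apart. Among the embryo groups, the labels differ only in the stage and the way RNA was selected. Batches of library preparation or sequencing are not given, and effects of a single library cannot be told apart from these. RNA of 3 biological replicates was pooled, so that there was 1 library per condition, no spread between replicates exists, and no test between libraries was made. A difference is called below when it reached 2-fold, which is a size and not a significance.

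A ribosome holds 1 copy of most ribosomal proteins, and the proteins are assembled with ribosomal RNA in the nucleolus. The large subunit carries the peptidyl transferase centre and the exit tunnel, and the small subunit decodes the message. Vertebrate ribosomal protein messages begin with a 5′ terminal oligopyrimidine (TOP) tract, through which their translation is controlled together. In Xenopus laevis, the oocyte stores ribosomes that last through early development, and ribosomal protein messages are known to lose their polyA tails and leave polysomes during oocyte maturation.

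Values are RPKM, reads per kilobase of exon scaled by the mapped reads of the library, given per gene as the mean over its exons. They are relative to the mapped reads of a library, not amounts per embryo. The read totals implied by the RPKM of genes taken as single-exon ranged between 13422643 (polyA stage 9) and 44490754 (polyA stage 6). The larger total is above what the read numbers and aligned share in the paper allow. The implied totals may therefore not be the mapped reads. The libraries differed in scale: the median RPKM of all genes above 0 was 2.57 RPKM at its lowest, in polyA stage 12, and 7.84 RPKM at its highest, in polyA stage 9. Each comparison is therefore given as deposited and beside the median of all genes compared. The difference between both medians does not depend on the scale of a library. In whole embryos, fewer cells that make a message and less message per cell cannot be told apart.

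Ribosomal protein messages were abundant in every library, with a median rank among all genes between 73 (polyA stage 30) and 1920 (RZ stage 9). The 77 genes held 7.19% (oocyte), 5.33% (stage 6), 4.89% (stage 9), 3.55% (stage 12), 5.49% (stage 16) and 21.3% (stage 30) of the summed RPKM of all genes in polyA. In RZ they held 3.07% (oocyte), 2.99% (stage 6) and 1.47% (stage 9). The polyA share was thus lowest at the gastrula and highest in the early larva, and the RZ share was lowest in the late blastula. The median member had 251 RPKM (oocyte), 59.99 (stage 6), 106 (stage 9), 81.1 (stage 12), 143 (stage 16) and 770.4 RPKM (stage 30) in polyA. In RZ the median member had 59.96 RPKM (oocyte), 46.1 (stage 6) and 27.6 RPKM (stage 9). Of the 100 genes with the highest RPKM of each polyA library, ribosomal protein genes made up 18 (oocyte), 13 (stage 6), 13 (stage 9), 3 (stage 12), 7 (stage 16) and 55 (stage 30).

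**Figure D1:**
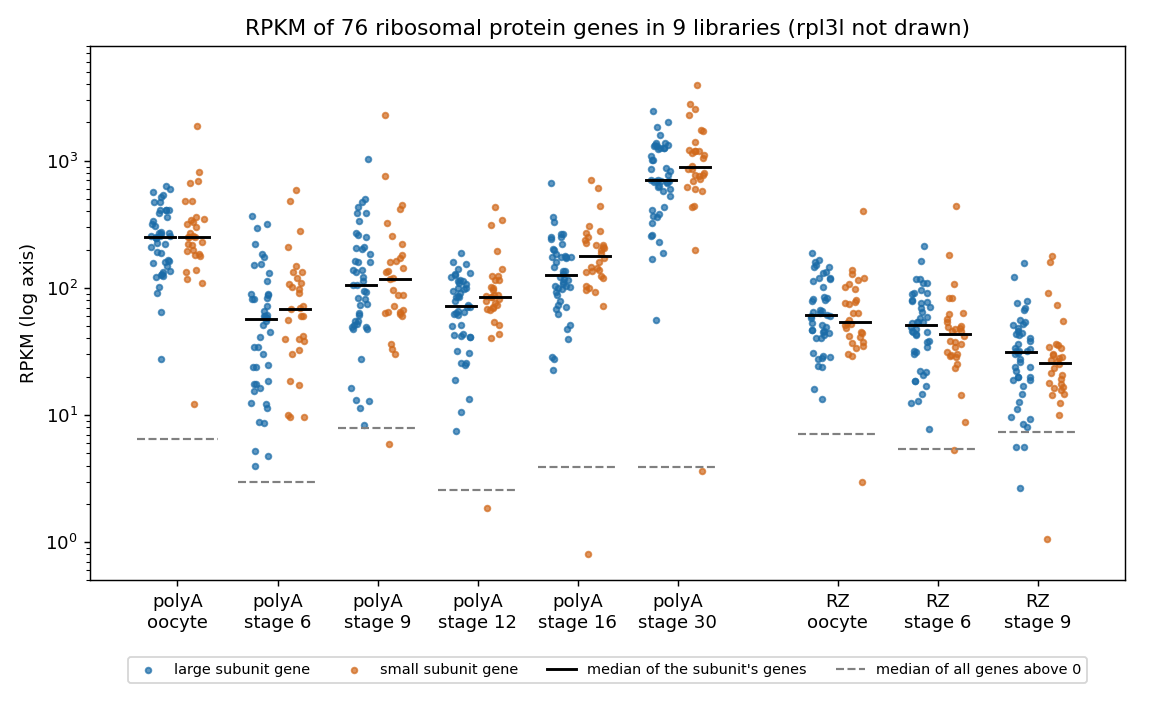
RPKM (log axis) of 76 ribosomal protein genes in the 6 polyA and 3 RZ libraries, 1 point per gene, with the median of each subunit's genes as a black line and the median of all genes above 0 as a dashed line. The bulk of the points lies above the dashed line in every library and highest at polyA stage 30, and the low small subunit gene is rps27, which reached 0.8001 RPKM at polyA stage 16.

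**Figure D2:**
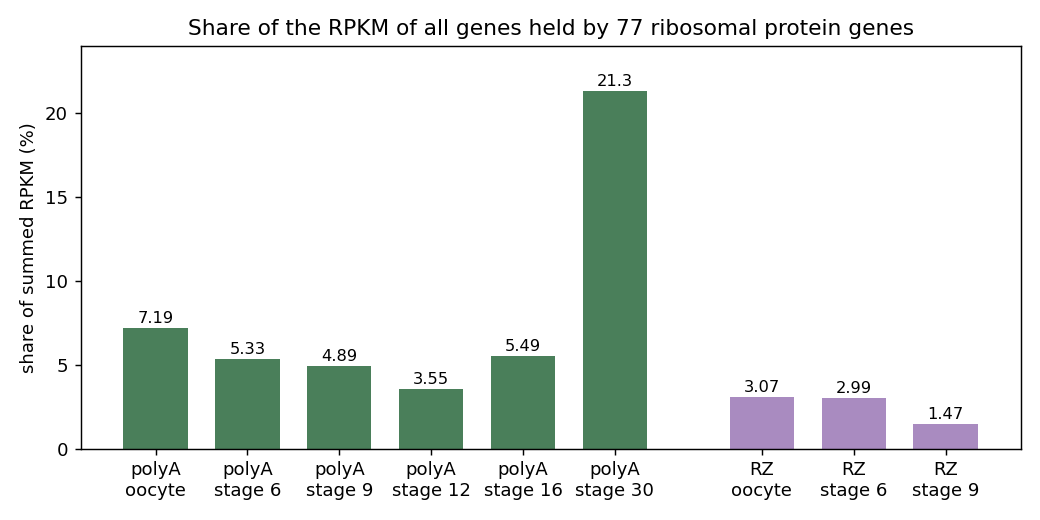
Share of the summed RPKM of all genes (percent, axis from 0) taken by the 77 ribosomal protein genes in each library. The share stood between 3.55% and 7.19% in the polyA libraries before stage 30, at 21.3% at stage 30, and between 1.47% and 3.07% in the RZ libraries.

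Of the 77 genes, 76 were above 0 in all 9 libraries and entered every comparison, which required 1 RPKM or more in one of the libraries compared. All but rps27 reached that minimum in both libraries of each comparison. rps27, at 0.8001 RPKM at polyA stage 16, entered stage 16 over 12 through stage 12 alone and stage 30 over 16 through stage 30 alone. The remaining gene, rpl3l, the muscle-type paralogue of rpl3 in mammals, was listed at 0 in 7 libraries and had 0.0734 RPKM at polyA stage 12 and 0.147 RPKM at polyA stage 30. It lies 2432 bp from rps2 on scaffold 9, on the same strand, which was the smallest gap between members on a scaffold. Whether other genes lie between members was not looked at. The genes were compact: the median span was 6103 bp, against 16673 bp for all genes, and the shortest and longest spans were 449 and 29159 bp. Members were spread over the assembly, 72 of them on the numbered scaffolds 1 to 10 of JGI 7.1.

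Between oocyte and early blastula, which spans maturation and fertilization, polyA ribosomal protein messages were lower as a group. The median member was 4.33-fold lower at stage 6 than in oocyte (log2 -2.11). Of 76 genes, 61 were at least 2-fold lower and 0 at least 2-fold higher, while 62.7% of all 9274 genes compared were lower and 5.83% higher. All genes had a median of -1.44, which leaves a difference of -0.68 for the ribosomal protein genes. When each library was scaled to the median of the 6640 genes at 1 RPKM or more in all libraries, 33 genes were lower and 7 higher, against 27.9% and 20.7% of all genes. The difference of medians was -0.21 when set against genes of at least 50 RPKM in one library.

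The members spread widely in this step. The gene with the lowest ratio was rpl5 (JGI 7.1 scaffold 4, 67200522 to 67227664, minus strand), whose protein binds 5S ribosomal RNA and, as part of the 5S particle, the p53 regulator Mdm2. In polyA, rpl5 had 266 RPKM (oocyte), 3.96 (stage 6), 52.4 (stage 9), 41.8 (stage 12), 101 (stage 16) and 526 RPKM (stage 30), and in total RNA 40.6 RPKM (RZ oocyte), 49.5 (RZ stage 6) and 30.2 RPKM (RZ stage 9). Its polyA value was thus 67.2-fold lower at stage 6 than in oocyte, whereas its RZ value was 1.22-fold that of the oocyte. Its partner in the 5S particle, rpl11, was 14.1-fold lower at stage 6 than in oocyte, with 23.8 RPKM at stage 6 against 336 RPKM in oocyte. The genes next to rpl5 at the low end were rpl27a with 5.18 RPKM at stage 6 against 160.2 RPKM in oocyte (log2 -4.95) and rpl26, a protein at the exit of the tunnel, with 11.3 RPKM at stage 6 against 305 RPKM in oocyte (log2 -4.75).

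Among small subunit genes, rps24 had 9.95 RPKM at stage 6 against 251 RPKM in oocyte. rps3a had 9.62 RPKM at stage 6 against 228 RPKM in oocyte. Both were far more than 2-fold lower at stage 6. At the other end, rpl18 had 368 RPKM at stage 6 against 257 RPKM in oocyte. rps14 had 134 RPKM at stage 6 against 110.2 RPKM in oocyte, and rplp0, the base of the stalk, had 294 RPKM at stage 6 against 246 RPKM in oocyte. As deposited, rpl18, rps14 and rplp0 stayed within 2-fold. With each library scaled to its median, they were among the 7 of 76 at least 2-fold higher, beside 20.7% of all genes. Under any scaling, 19 of 76 ribosomal protein genes lay above the median of all genes compared and 57 below. The order of the genes by abundance was loosely kept, with a Spearman rho of 0.411 between oocyte and stage 6 over the 75 genes at 1 RPKM or more in all 9 libraries.

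Between early and late blastula, most polyA values of ribosomal protein genes were higher as deposited, but by less than those of other genes. The median member had a log2 ratio of 0.96 at stage 9 over stage 6, against 1.53 for all 9348 genes compared, a difference of -0.57. As deposited, 36 of 76 were at least 2-fold higher and 1 lower, beside 68.7% and 2.40% of all genes. After scaling to the medians, 9 were higher and 19 lower, beside 20.5% and 15.1%, so the scaling sets which direction holds the larger count. The difference of medians was -0.19 with at least 5 RPKM required in both libraries, -0.28 on the log2(RPKM + 1) scale and -0.10 against genes spanning 10 kb or less.

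This step shares the stage 6 library with the one before. Among the highest ratios were those of rpl5, rpl26 and rpl11: rpl5 was 13.2-fold higher at stage 9 than at stage 6, rpl26 11.7-fold and rpl11 11.4-fold. At the low end stood rpl23, which in human cells binds Mdm2 as rpl5 and rpl11 do, with 51.2 RPKM at stage 9 against 90.1 RPKM at stage 6, and rps27, with 5.95 RPKM at stage 9 against 9.69 RPKM at stage 6. As deposited, neither rpl23 nor rps27 reached 2-fold.

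rps20 (JGI 7.1 scaffold 6, 34054569 to 34058888, plus strand), a small subunit protein, took 15.8% of the summed RPKM of all members at polyA stage 9, the largest share any single member reached in a library. It had 669 RPKM (oocyte), 587 (stage 6), 2289 (stage 9), 345 (stage 12), 437 (stage 16) and 752 RPKM (stage 30) in polyA, and 138 RPKM (RZ oocyte), 181 (RZ stage 6) and 159 RPKM (RZ stage 9). It is the gene that peaked at stage 9: of the 76 genes, 68 had their highest polyA RPKM at stage 30, 7 in oocyte and 1, rps20, at stage 9, beside 22.2%, 25.7% and 30.1% of 12237 genes. Scaled to the medians, over the 75 genes at 1 RPKM or more in all libraries, 74 had their highest value at stage 30, 0 in oocyte and 1, again rps20, at stage 9, beside 20.7%, 19.4% and 16.1% of 6640 genes.

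In the step to the gastrula, the sign of the change of ribosomal protein messages depended on the scale used. As deposited, the median log2 ratio of stage 12 over stage 9 was -0.47, with 30 of 76 genes at least 2-fold lower and 4 higher, beside 59.2% and 13.1% of all 10032 genes. After scaling each library to its median, 4 were lower and 36 higher, beside 26.5% and 28.5%. With equal summed RPKM, 15 were lower and 13 higher, beside 44.8% and 17.9%. Relative to all genes, whose median was -1.39, the ribosomal protein genes lay higher by a difference of 0.92, which was 0.46 with at least 5 RPKM in both libraries and 0.52 against genes spanning 10 kb or less. Among the highest ratios as deposited were those of rpl34 (2.77-fold, with 31.7 RPKM at stage 12 against 11.4 RPKM at stage 9) and rps25 (2.65-fold, with 87.9 RPKM at stage 12 against 33.2 RPKM at stage 9). Among the lowest were those of rps20 (6.64-fold lower) and rpl35, a protein of the tunnel exit, with 86.5 RPKM at stage 12 against 471 RPKM at stage 9.

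Counting error was worked out from the implied read totals for rpl34 (JGI 7.1 scaffold 5, 92205533 to 92205982, plus strand). It was the only member that these totals give whole reads in all libraries, and so was taken as a single exon of 449 bp. In polyA it had 121 RPKM (115 to 128, 1405 reads) in oocyte and 8.76 RPKM (7.51 to 10.2, 175 reads) at stage 6. At stage 9 it had 11.4 RPKM (8.91 to 14.5, 69 reads) and at stage 12 31.7 RPKM (28.5 to 35.1, 356 reads). It reached 50.9 RPKM (45.8 to 56.5, 355 reads) at stage 16 and 169 RPKM (159.6 to 179, 1221 reads) at stage 30. As deposited, the intervals of stages 6 and 9 overlap, and each later step lies outside the interval of the stage before. The log2 ratio of rpl34 at stage 9 over stage 6 was 0.39. Scaling to the medians takes log2 1.38 off it, so the sign of this step follows the scaling. In RZ oocyte rpl34 had 40.5 RPKM (36.8 to 44.6, 421 reads), in RZ stage 6 17.03 RPKM (14.6 to 19.8, 171 reads) and in RZ stage 9 11.2 RPKM (9.29 to 13.4, 120 reads). The brackets give exact Poisson intervals at the 95% level, which cover counting error only and not the difference between embryos or library preparations. Reads and intervals hold only if the implied totals are the mapped reads. For polyA stage 6 that total is above what the paper allows, so its interval may be too narrow.

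From gastrula to neurula, ribosomal protein messages were higher in polyA. The median log2 ratio of stage 16 over stage 12 was 0.95, against 0.47 for all 10451 genes, a difference of 0.47. At least 2-fold higher were 34 of 76 genes and 1 was at least 2-fold lower, beside 33.8% and 7.72% of all genes. Scaled to the medians, 24 of 76 were at least 2-fold higher, beside 28.9% of all genes, and with equal summed RPKM 20 of 76, beside 26.8%. Under both scalings the share of ribosomal protein genes past 2-fold was near that of all genes. The difference of medians was 0.83 with at least 5 RPKM in both libraries. Among the highest ratios were those of rpl11 (3.503-fold, 175 RPKM at stage 16 against 49.9 at stage 12) and rpl10a (3.43-fold, the protein of the L1 stalk, 88.7 RPKM at stage 16 against 25.8 RPKM at stage 12). The 1 gene counted as lower was rps27, with 0.8001 RPKM at stage 16 against 1.86 at stage 12, which passed the minimum only through stage 12, where it was higher, so nothing is read from that count. rps25 and rpl12 stood next to it and stayed within 2-fold, with log2 ratios of -0.30 and -0.30.

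Between neurula and early larva, nearly the whole family was higher. The median member was 5.66-fold higher at stage 30 than at stage 16 (log2 2.50), while the median of all 11447 genes was 0.18, a difference of 2.32. Of 76 genes, 74 were at least 2-fold higher and 0 lower, beside 25.3% and 15.8% of all genes. Scaled to the medians, the counts were 74 and 0, beside 23.3% and 17.6% of all genes. With equal summed RPKM they were 69 and 0, beside 15.6% and 28.1%. The 74 include rps27, which passed the minimum only through stage 30. The 2 genes below 2-fold were rps20 (1.72-fold) and rps18 (1.96-fold, 1191 RPKM at stage 30 against 608 at stage 16), both already among the most abundant members. The highest ratios belonged to rplp2 of the stalk (14.6-fold, 407 RPKM at stage 30 against 27.8 RPKM at stage 16), rps9 (13.4-fold, 1392 RPKM at stage 30 against 104 RPKM at stage 16) and rpl26 (13.3-fold, 1375 RPKM at stage 30 against 104 RPKM at stage 16). Against the oocyte, 69 of 76 genes were higher at stage 30 as deposited and 75 with each library scaled to its median, beside 42.3% and 61.3% of 11087 genes. As deposited the members had a median log2 ratio of 1.78, while the median of all genes was -0.41.

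**Figure D3:**
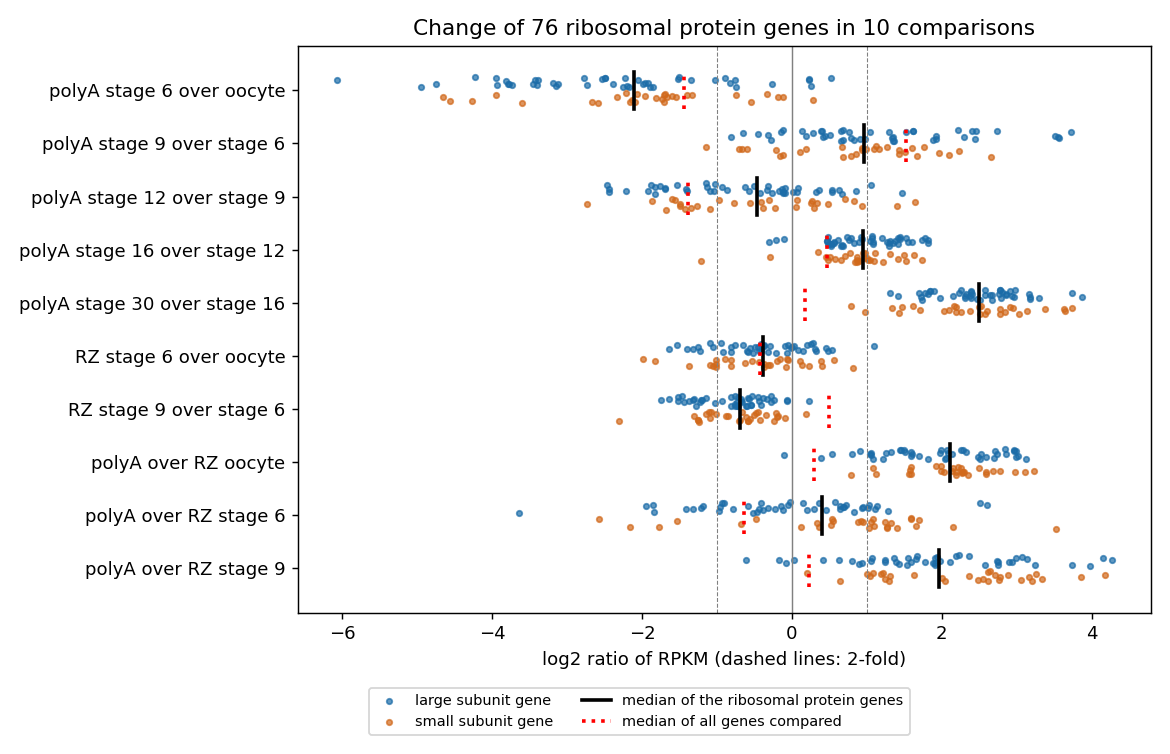
Log2 ratio of RPKM of 76 ribosomal protein genes in the 10 comparisons, 1 point per gene, with the median of the ribosomal protein genes as a black bar, the median of all genes compared as a dotted red bar and dashed lines at 2-fold. The black bar lies right of the red bar by 2.32 at polyA stage 30 over stage 16 and by 1.81 at polyA over RZ oocyte, and left of it by the difference of -1.19 at RZ stage 9 over stage 6.

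In total RNA, where the length of the polyA tail does not select the message, the ribosomal protein genes lay close to the median of all genes between oocyte and early blastula. The median log2 ratio of RZ stage 6 over oocyte was -0.39, against -0.42 for all 9182 genes, a difference of 0.04 whose sign was turned by several settings. At least 2-fold lower were 16 of 76 genes and 1 was higher, beside 20.2% and 1.70% of all genes, and with each library scaled to its median 4 were lower and 2 higher, beside 8.46% and 4.55%. The lowest ratios were those of rps26, with 8.81 RPKM at stage 6 against 34.99 RPKM in oocyte, rps15, with 35.99 RPKM at stage 6 against 128 RPKM in oocyte, and rpl35a, with 7.698 RPKM at stage 6 against 23.99 RPKM in oocyte. The gene that was higher was rpl39, a short protein that lines the exit tunnel, with 109 RPKM at stage 6 against 50.9 RPKM in oocyte. After it stood rps27 and rps25, with log2 ratios of 0.82 and 0.56.

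Between early and late blastula, ribosomal protein messages were lower in total RNA, while the median of all genes was higher as deposited. Scaling to the medians takes log2 0.49 off each ratio of this step. The fall was not particular to this family: the RZ medians were -0.70 for mitochondrial ribosomal proteins and -0.83 for proteasome subunits. The median log2 ratio of RZ stage 9 over stage 6 was -0.70, against 0.50 for all 9280 genes, a difference of -1.19. All 76 genes lay below the median of all genes. At least 2-fold lower were 25 of 76 and 0 were higher, beside 7.33% and 31.9% of all genes. Scaled to the medians, 54 were lower and 0 higher, beside 16.2% and 18.2%. Against genes spanning 10 kb or less, the difference was -0.67. The lowest ratios were those of rps27, with 1.07 RPKM at stage 9 against 5.27 RPKM at stage 6, rpl27a, with 5.57 RPKM at stage 9 against 18.6 RPKM at stage 6, and rpl14, with 14.5 RPKM at stage 9 against 45.4 RPKM at stage 6. Only rpl17, a protein that lines the exit tunnel, and rps26 had a log2 ratio above 0, of 0.23 and 0.19, and rpl3, at 157 RPKM at stage 9 and 163 at stage 6, came next.

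The polyA and RZ libraries of one stage differ in how RNA was selected, and the PA/RZ ratio of a gene can be set against that of other genes. In oocyte, ribosomal protein genes stood well above other genes, with a median log2 PA/RZ of 2.11, against 0.29 for all 9503 genes. At least 2-fold higher in polyA than in RZ were 70 of 76 genes and 0 were lower, beside 29.8% and 17.6% of all genes. The difference of medians was 1.81, and 0.84 against genes of at least 50 RPKM in one library. The highest ratios were those of rps26 (log2 3.23), rpl37a (3.13, with 407 RPKM in polyA and 46.6 in RZ) and rps24 (3.11). The lowest were those of rplp1 (-0.10), rplp0 (0.39) and rpl7a (0.54).

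At stage 6 the excess in polyA was smaller, and ratios lay on both sides of 0. The median log2 PA/RZ was 0.40, against -0.63 for all 8905 genes. At least 2-fold higher in polyA were 22 of 76 genes and 12 were lower, beside 9.97% and 38.3% of all genes. With each library scaled to its median, 38 were higher and 7 lower, beside 19.4% and 23.0%. The difference of medians was 1.04, and 0.62 against genes of at least 50 RPKM in one library. The ends were far apart: rps26 was 11.5-fold higher in polyA and rpl5 12.5-fold lower in polyA than in RZ. Next to rps26 stood rpl15 (log2 2.60, 318 RPKM in polyA and 52.6 in RZ) and rpl18 (2.51), and next to rpl5 stood rps3a (-2.57).

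At stage 9 the median log2 PA/RZ was 1.96, against 0.23 for all 9516 genes, with 64 of 76 genes at least 2-fold higher in polyA and 0 lower, beside 23.6% and 7.69% of all genes. With each library scaled to its median, 54 were higher and 0 lower, beside 16.5% and 14.8%. With equal summed RPKM, 46 were higher and 1 lower, beside 10.3% and 26.6%. The difference of medians was 1.72, and 0.94 against genes of at least 50 RPKM in one library. Among the highest ratios were those of rps26 (18.1-fold) and rpl35a (17.7-fold, 47.6 RPKM in polyA and 2.69 in RZ). The lowest belonged to rpl32 (log2 -0.61), rpl3 (-0.17) and rpl12 (-0.081), the protein at the base of the stalk, which were about as high in RZ as in polyA.

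The medians of both subunits were close in oocyte and further apart at stage 6. At stage 6 the median log2 PA/RZ was -0.087 for 46 large subunit genes, 21 of them above 0, and 0.99 for 30 small subunit genes, 24 of them above 0. In oocyte they were 2.01 and 2.20 for large and small subunit genes, and at stage 9 they were 1.89 and 2.51 for large and small subunit genes. The ranges at stage 6 overlapped in large part, -3.64 to 2.60 for the large and -2.57 to 3.52 for the small subunit. The quartiles overlapped less, -0.87 to 0.70 for the large and 0.34 to 1.31 for the small subunit. The difference was not tested.

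The same step could be read in both kinds of library. From oocyte to stage 6, 47 of 76 genes were at least 2-fold lower in polyA and within 2-fold in RZ, as were 47.4% of 8910 genes with values in both. In the step to stage 9, as deposited, 60 of 76 genes were higher in polyA and lower in RZ, a pattern held by 26.9% of 9057 genes. By at least 2-fold both ways, 10 of 76 did so, as did 3.599% of all. The sign in polyA follows the scaling in this step. Among the members, the size of the change in polyA went little with that in RZ, with a Spearman rho of 0.117 for the first and 0.151 for the second step over 76 genes, which share their libraries. PA/RZ was lowest of the 3 stages at stage 6 in 64 of 76 genes (61.1% of 8780 genes with all 3 ratios) and above 0 at all 3 stages in 44 of 76 (17.6%).

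**Figure D4:**
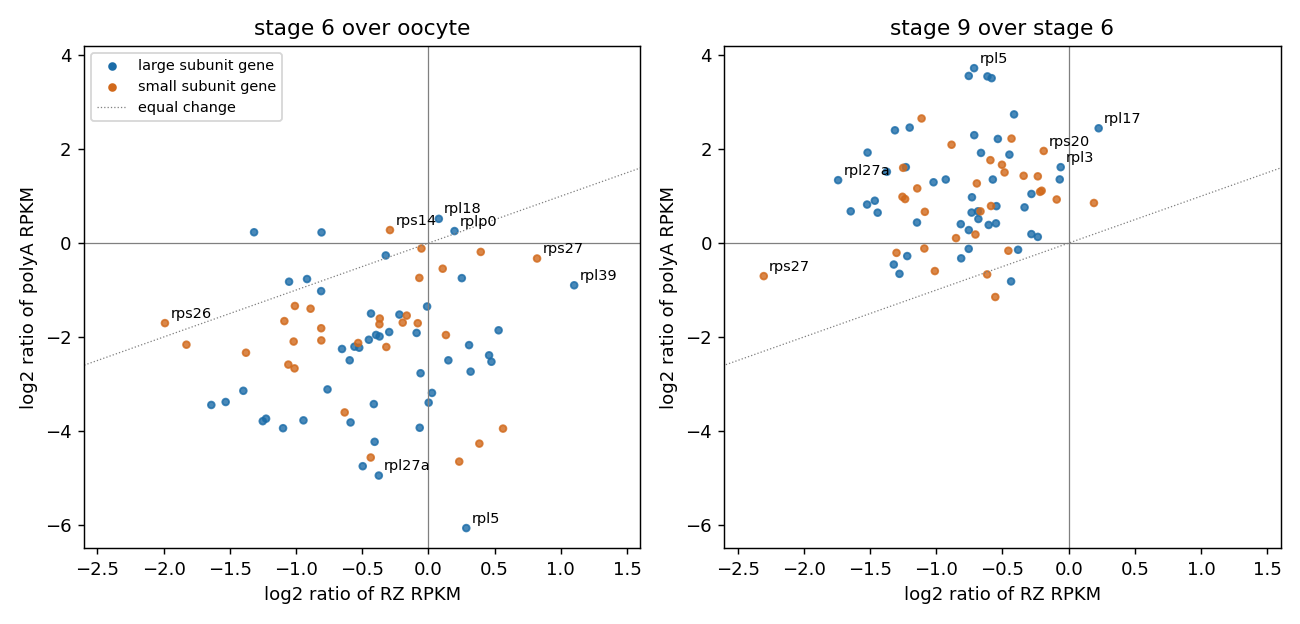
Log2 ratio of polyA RPKM against log2 ratio of RZ RPKM for 76 ribosomal protein genes, at stage 6 over oocyte (left) and stage 9 over stage 6 (right), with a dotted line of equal change. Ratios are as deposited. In the left panel most points lie below the dotted line with RZ ratios near 0. In the right panel 60 of 76 points lie in the upper left part, higher in polyA and lower in RZ.

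By role, the proteins of the stalk, which recruits the elongation factors, did not move as a block. In polyA, rplp0 had 246 RPKM (oocyte), 294 (stage 6), 389 (stage 9), 109 (stage 12), 363 (stage 16) and 2004 RPKM (stage 30). Its partner rplp1 had 148 RPKM (oocyte), 174 (stage 6), 139 (stage 9), 128 (stage 12), 176 (stage 16) and 632 RPKM (stage 30), and rplp2 had 64.6 RPKM (oocyte), 15.5 (stage 6), 12.8 (stage 9), 13.5 (stage 12), 27.8 (stage 16) and 407 RPKM (stage 30). Thus, as deposited, rplp0 and rplp1 stayed within 2-fold between oocyte and stage 6, whereas rplp2 was 4.17-fold lower at stage 6. In RZ, rplp0 had 188 RPKM (RZ oocyte), 215 (RZ stage 6) and 122 RPKM (RZ stage 9), and rplp1 had 159 RPKM (RZ oocyte), 91.00 (RZ stage 6) and 51.8 RPKM (RZ stage 9). The 3 proteins sit on the same stalk of the large subunit, and at stage 30 their polyA messages stood between 407 and 2004 RPKM.

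rpsa, a small subunit protein first described as a laminin receptor precursor, had 118 RPKM (oocyte), 109 (stage 6), 173 (stage 9), 68.2 (stage 12), 124 (stage 16) and 855 RPKM (stage 30) in polyA, and 55.6 RPKM (RZ oocyte), 53.6 (RZ stage 6) and 25.3 RPKM (RZ stage 9). As deposited, it differed from most of the family in staying near its oocyte level at stage 6. rps6, the small subunit protein phosphorylated by S6 kinase, had 480.4 RPKM (oocyte), 39.4 (stage 6), 88.4 (stage 9), 124 (stage 12), 226 (stage 16) and 2812 RPKM (stage 30) in polyA, and 98.1 RPKM (RZ oocyte), 63.3 (RZ stage 6) and 28.6 RPKM (RZ stage 9). Unlike rpsa, it was 12.2-fold lower at stage 6 than in oocyte, and it was 12.4-fold higher at stage 30 than at stage 16. rps29, the most abundant member in 7 of the 9 libraries, had 1863 RPKM (oocyte), 479 (stage 6), 415 (stage 9), 431 (stage 12), 703 (stage 16) and 3969 RPKM (stage 30) in polyA, and 403 RPKM (RZ oocyte), 441 (RZ stage 6) and 179 RPKM (RZ stage 9).

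rps26, which in human is one of the genes mutated in Diamond-Blackfan anaemia, stood apart in the ratio of both kinds of library. It had 329 RPKM (oocyte), 101 (stage 6), 182 (stage 9), 140.1 (stage 12), 282 (stage 16) and 869 RPKM (stage 30) in polyA, and 34.99 RPKM (RZ oocyte), 8.81 (RZ stage 6) and 10.1 RPKM (RZ stage 9). Its RZ value thus was 3.97-fold lower at stage 6 than in oocyte and stayed low at stage 9. In polyA it was 3.26-fold lower at stage 6. Toward the other end of the PA/RZ ratio at stages 6 and 9 stood rpl3, whose protein reaches toward the peptidyl transferase centre, with 256 RPKM (oocyte), 45.3 (stage 6), 139 (stage 9), 130.3 (stage 12), 185 (stage 16) and 1265 RPKM (stage 30) in polyA, and 147 RPKM (RZ oocyte), 163 (RZ stage 6) and 157 RPKM (RZ stage 9). Its total RNA stayed within 2-fold over the 3 stages. Since reads mapping to several places were left out, any member with a near-identical copy in the genome may be undercounted, and no value here measures by how much.

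The members with the lowest RPKM set the low edge of the family. Whether reads left out of the mapping lower their values was not tested. rps27 had 12.2 RPKM (oocyte), 9.69 (stage 6), 5.95 (stage 9), 1.86 (stage 12), 0.8001 (stage 16) and 3.65 RPKM (stage 30) in polyA, and 2.98 RPKM (RZ oocyte), 5.27 (RZ stage 6) and 1.07 RPKM (RZ stage 9), which makes it the only member apart from rpl3l below 1 RPKM in a library. As deposited, 7 of 76 members were below their oocyte level at stage 30, beside 57.7% of all genes, with log2 ratios of -1.74 for rps27, -0.70 for rpl22l1 and -0.44 for rps25. With each library scaled to its median, rps27 was the 1 member still below, at -0.81, beside 38.7% of all genes, and rpl22l1 and rps25 turned to 0.23 and 0.49. rpl32, on the small scaffold 5910, had 27.7 RPKM (oocyte), 4.797 (stage 6), 8.28 (stage 9), 10.6 (stage 12), 28.4 (stage 16) and 256 RPKM (stage 30) in polyA, with 13.3 RPKM (RZ oocyte), 18.5 (RZ stage 6) and 12.6 RPKM (RZ stage 9). As deposited it was near its oocyte level at stage 16 and above it at stage 30.

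Paralogues kept different levels. rpl22, a protein whose loss in mice is tolerated by most tissues, had 629.6 RPKM (oocyte), 41.2 (stage 6), 105 (stage 9), 84.4 (stage 12), 121 (stage 16) and 578 RPKM (stage 30) in polyA, and 80.5 RPKM (RZ oocyte), 76.9 (RZ stage 6) and 40.4 RPKM (RZ stage 9). Its paralogue rpl22l1 had 91.7 RPKM (oocyte), 17.5 (stage 6), 27.4 (stage 9), 7.46 (stage 12), 22.7 (stage 16) and 56.3 RPKM (stage 30) in polyA, and 15.9 RPKM (RZ oocyte), 21.9 (RZ stage 6) and 8.04 RPKM (RZ stage 9). rpl22 was thus the more abundant of the pair in all 9 libraries. At stage 30 over oocyte the direction of both follows the scaling: the log2 ratio was -0.12 as deposited and 0.81 scaled to the medians for rpl22, and -0.70 and 0.23 for rpl22l1. rps4x, the only member with an x in its symbol, had 219.7 RPKM (oocyte), 69.5 (stage 6), 325 (stage 9), 116 (stage 12), 309 (stage 16) and 1756 RPKM (stage 30) in polyA.

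**Figure D5:**
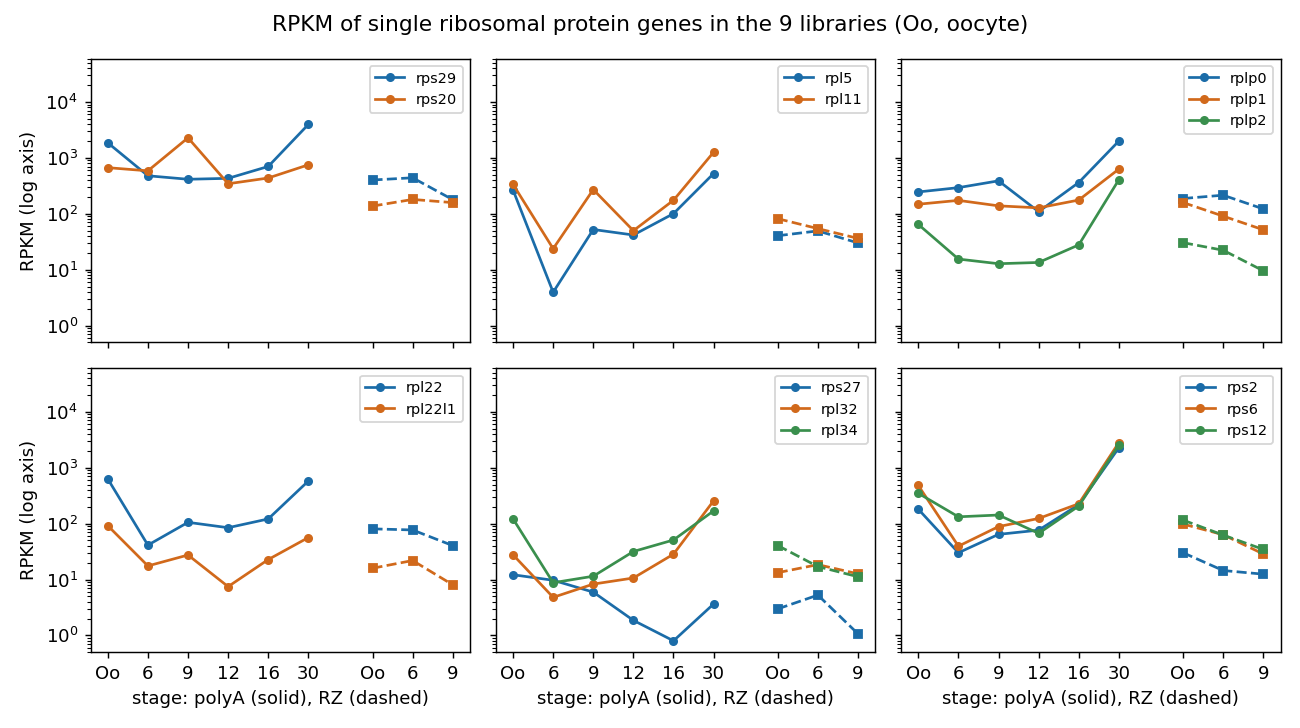
RPKM (log axis) of single ribosomal protein genes over the stages, polyA as circles with solid lines and RZ as squares with dashed lines, in 6 panels of genes that are abundant, bind 5S RNA, form the stalk, are paralogues, are low, or stood high at stage 30. The panel of the low genes rps27 and rpl32 also holds rpl34, which is not among the least abundant members. At stage 6, rpl5 had 3.96 RPKM and rps20 587 RPKM in polyA, and rps2 and rps12, at 2272 and 2563 RPKM at stage 30, were added after their values were seen.

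Other genes of the ribosome and its assembly are given beside the members. The ribosomal proteins fau, made as a fusion with a ubiquitin-like part, and gnb2l1 (the 40S protein RACK1) lie outside the symbol pattern. In polyA, fau had 249.8 RPKM (oocyte), 38.6 (stage 6), 157 (stage 9), 46.9 (stage 12), 79.4 (stage 16) and 316 RPKM (stage 30). gnb2l1 had 449 RPKM (oocyte), 333 (stage 6), 337 (stage 9), 185 (stage 12), 311 (stage 16) and 1039 RPKM (stage 30). The row rps28p9, whose symbol also falls outside the pattern, had 176 RPKM (oocyte), 68.5 (stage 6), 39.3 (stage 9), 67.3 (stage 12), 86.2 (stage 16) and 543 RPKM (stage 30). fau and gnb2l1 were both at least 2-fold higher at stage 30 than at stage 16, and both were at least 2-fold higher in polyA than in RZ in oocyte.

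The factors that assemble the subunits had smaller median ratios at stage 30 than the ribosomal proteins themselves, a difference that was not tested. Of 42 genes of 60S assembly, 21 were at least 2-fold higher at stage 30 than at stage 16 (median log2 1.003), and of 37 of 90S and 40S assembly, 8 (median 0.76), beside 25.3% of all genes and a median of 0.18. In RZ, 60S assembly genes had a median of 0.63 at stage 9 over stage 6, with 15 of 41 at least 2-fold higher and 3 lower. The 90S and 40S assembly genes had a median of 0.13, with 11 of 37 higher and 4 lower. The median was -0.70 for the ribosomal protein genes and 0.50 for all genes, of which 31.9% were at least 2-fold higher and 7.33% lower. A list of elongation factor and other messages known in vertebrates for a TOP tract had medians of -1.66 at polyA stage 6 over oocyte and 1.17 at stage 30 over stage 16, against -1.44 and 0.18 for all genes. Of 21 such genes, 14 were at least 2-fold higher at stage 30 than at stage 16 and 0 lower. The list holds eef1a1, which had 77.4 RPKM (oocyte), 23.8 (stage 6), 45.03 (stage 9), 211 (stage 12), 440.2 (stage 16) and 1422 RPKM (stage 30) in polyA. It does not hold eef1a1o, which had 616 RPKM (oocyte), 118 (stage 6), 676 (stage 9), 3006 (stage 12), 4489 (stage 16) and 818 RPKM (stage 30) and so was lower at stage 30 than at stage 16.

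Mitochondrial ribosomal proteins and proteasome subunits, other families of housekeeping complexes, are set beside the cytosolic ribosomal proteins as values only. Between early and late blastula the RZ medians were -0.70 for 76 cytosolic ribosomal protein genes, -0.70 for 70 mitochondrial ones and -0.83 for 31 proteasome subunits. At polyA stage 30 over stage 16 they were 2.50 for cytosolic ribosomal proteins, 1.49 for mitochondrial ones and 1.21 for the proteasome. At polyA over RZ in oocyte they were 2.11 for cytosolic ribosomal proteins, 1.48 for mitochondrial ones and 0.83 for the proteasome. At polyA stage 12 over stage 9 they were -0.47 for cytosolic ribosomal proteins, -1.80 for mitochondrial ones and -0.54 for the proteasome. The RZ median of the late blastula was below 0 in all 3 families. For all genes the medians of these steps were 0.50 (RZ stage 9 over stage 6), 0.18 (polyA stage 30 over stage 16), 0.29 (polyA over RZ oocyte) and -1.39 (polyA stage 12 over stage 9). No difference between the families was tested.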

How the data were processed

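RNA of pooled replicates was sequenced in 6 polyA and 3 RZ libraries. The authors aligned reads with BWA (version 0.6.1 in the submitters' processing notes) to JGI 7.1, left out reads mapping to several positions, and deposited RPKM per gene, averaged over the exons of all its isoforms. All 9 sample names stand together in 1 header field, and their order was taken as that of the columns. Dropped reads lower the values of genes with near-identical copies, and a short exon weighs as much as a long one.

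RPKM was used without a pseudocount. A gene was compared when it was above 0 in both libraries and at 1 RPKM or more in one, and called at 2-fold. With 1 library per condition no test was made. Implied read totals were sought over all genes, as totals that turn RPKM times span into whole reads for many genes. The 436 genes with whole reads in all 9 libraries (tolerance 0.001) were then taken as single-exon, without an annotation of exons. On simulated data that follow the same formula, 9 of 9 totals were recovered. That cannot show that the totals of the real libraries are mapped reads. Coordinates are those of the deposited table.

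The members and the gene lists were chosen with earlier results of these data known. Named members were those with the 3 highest and 3 lowest ratios of each comparison, the 5 highest and 5 lowest median polyA RPKM, the stalk, 5S, paralogue and kinase substrate genes and rpsa. The results of some genes that this rule names are not reported here. rps2, rps12 and rps28p9 were chosen after their values were seen. Alternatives were other filters, a pseudocount of 1, scaling to the median or sum, and members without paralogues. Backgrounds of short or abundant genes and the scaled ratios of stage 30 over oocyte were added after seeing the data. Python 3.11.15, numpy 2.4.6, pandas 2.3.3, scipy 1.17.1 and matplotlib 3.10.9 were used.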

Additional observations from a re-analysis of the deposited data

Results flagged for a closer look

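Between stage 6 and stage 9, the median of the ribosomal protein genes had opposite signs in the 2 kinds of library as deposited. Their median log2 ratio of stage 9 over stage 6 was 0.96 in polyA and -0.70 in RZ, over the same 76 genes. Scaling to the medians takes log2 1.38 off each polyA ratio, more than that 0.96, so the sign in polyA follows the scaling. So scaled, 9 of 76 were at least 2-fold higher in polyA and 19 lower, beside 20.5% and 15.1% of all genes. In RZ, 0 were higher and 54 lower, beside 18.2% and 16.2%. All genes had medians of 1.53 in polyA and 0.50 in RZ, so the ribosomal protein genes lay below the median of all genes in both. The difference between the 2 kinds of library was not tested, as there was 1 library per condition.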

How the results depend on the processing

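With 1 library per condition, no replicate could be left out. No paired analysis was possible because no replicates exist and no result comes from a test. Members' shares of summed RPKM moved under none of the alternatives run. A count or share was taken as moved at a change of 1.5-fold, and a difference of medians at a change of 0.1. Of 209 alternative values, 156 stayed within these limits with the same sign, 49 moved and 4 turned in sign. All 4 were for the difference of medians at RZ stage 6 over oocyte, and the cause was not tested. Without a filter on low values, the difference of medians was 0.75 for polyA stage 12 over stage 9. With at least 5 RPKM in both libraries, the difference of medians was -0.99 for polyA stage 6 over oocyte, -0.19 for polyA stage 9 over stage 6, 0.46 for polyA stage 12 over stage 9, 0.83 for polyA stage 16 over stage 12, -0.088 for RZ stage 6 over oocyte, -1.01 for RZ stage 9 over stage 6 and 0.79 for polyA over RZ stage 6. On the log2(RPKM + 1) scale, the difference of medians was -0.96 for polyA stage 6 over oocyte, -0.28 for polyA stage 9 over stage 6, 0.64 for polyA stage 12 over stage 9, -0.016 for RZ stage 6 over oocyte and 0.91 for polyA over RZ stage 6. Against genes spanning 10 kb or less, added after seeing the data, the difference of medians was -0.10 for polyA stage 9 over stage 6, 0.52 for polyA stage 12 over stage 9, 2.09 for polyA stage 30 over stage 16, -0.16 for RZ stage 6 over oocyte, -0.67 for RZ stage 9 over stage 6, 1.34 for polyA over RZ oocyte, 0.70 for polyA over RZ stage 6 and 1.34 for polyA over RZ stage 9. Against genes of at least 50 RPKM in one library, added after seeing the data, the difference of medians was -0.21 for polyA stage 6 over oocyte, 0.60 for polyA stage 16 over stage 12, 1.997 for polyA stage 30 over stage 16, -0.18 for RZ stage 6 over oocyte, -1.05 for RZ stage 9 over stage 6, 0.84 for polyA over RZ oocyte, 0.62 for polyA over RZ stage 6 and 0.94 for polyA over RZ stage 9. The single member that was lower at polyA stage 16 over stage 12, rps27, which passed the minimum through stage 12 alone, was not called with at least 5 RPKM in both libraries, where it was left out, nor on the log2(RPKM + 1) scale, which left 0 members lower. Member counts with each library scaled to its median follow, with the share of all genes in brackets. At least 2-fold higher were 7 (20.7%) for polyA stage 6 over oocyte and 9 (20.5%) for polyA stage 9 over stage 6. They were 36 (28.5%) for polyA stage 12 over stage 9 and 2 (4.55%) for RZ stage 6 over oocyte. For polyA over RZ stage 6 the number was 38 (19.4%). At least 2-fold lower, so scaled, were 33 (27.9%) for polyA stage 6 over oocyte and 19 (15.1%) for polyA stage 9 over stage 6. They were 4 (26.5%) for polyA stage 12 over stage 9 and 7 (23.0%) for polyA over RZ stage 6. In RZ they were 4 (8.46%) for stage 6 over oocyte and 54 (16.2%) for stage 9 over stage 6. With equal summed RPKM, members at least 2-fold higher, with the share of all genes in brackets, were 8 (22.4%) for polyA stage 6 over oocyte. They were 12 (25.7%) for polyA stage 9 over stage 6 and 13 (17.9%) for polyA stage 12 over stage 9. For polyA stage 16 over stage 12 they were 20 (26.8%) and for RZ stage 6 over oocyte 2 (3.25%). Members at least 2-fold lower with equal summed RPKM were 31 (25.1%) for polyA stage 6 over oocyte. They were 18 (12.1%) for polyA stage 9 over stage 6 and 15 (44.8%) for polyA stage 12 over stage 9. In RZ they were 7 (10.8%) for stage 6 over oocyte and 39 (12.2%) for stage 9 over stage 6. For polyA over RZ stage 9 the number was 1 (26.6%). The direction given by counts for polyA stage 9 over stage 6 and stage 12 over stage 9 thus follows the scaling. For rpl34 the intervals of polyA stages 6 and 9 overlap as deposited, and the sign of that step follows the scaling. For members with several exons the reads behind a value are not known.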

Other observations

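The machinery that makes and modifies ribosomal RNA is given as values. Of 11 genes of RNA polymerase I and its factors, 1 was at least 2-fold higher at polyA stage 30 than at stage 16 and 1 lower, with a median log2 ratio of 0.36, beside 25.3% and 15.8% of all genes and a median of 0.18. Of 12 genes of the box C/D and H/ACA particles, which guide modification of ribosomal RNA, 6 were higher and 0 lower (median 1.004), beside the same shares of all genes. In the step to the gastrula, this list had a median of 0.98 as deposited, with 6 genes higher and 2 lower, beside 13.1% and 59.2% of all genes and a median of -1.39, in a step where counts follow the scaling. In RZ stage 9 over stage 6, the medians were 0.77 for RNA polymerase I, 0.51 for the box C/D and H/ACA particles and 0.26 for 53 translation initiation factors, against 0.50 for all genes. Regulators of TOP messages had an RZ median of 1.40 in that step, with 9 of 16 at least 2-fold higher and 0 lower, beside 31.9% and 7.33% of all genes. Their median was 0.093 at polyA stage 30 over stage 16. The list holds larp1, which stayed within 2-fold with 31.5 RPKM at RZ stage 6 and 37.1 at RZ stage 9. It also holds mtor, with 4.31 RPKM at RZ stage 6 and 15.6 at RZ stage 9. 42Sp43, an oocyte protein that stores 5S RNA in Xenopus, had 41.2 RPKM (oocyte), 25.8 (stage 6), 40.6 (stage 9), 11.6 (stage 12), 2.299 (stage 16) and 0.0975 RPKM (stage 30) in polyA, a course that ended low where the ribosomal protein genes ended high.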
